A study of Homo sapiens with 2 samples.

Results

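Genes of inflammatory signalling were examined in UACC62 human melanoma cells: PTGS2, CXCL8, CCL2, CXCL2 and LIF. They were found by gene symbol among 14884 genes with a named probe set, and all 5 were present, each with 1 probe set. They had been selected on their log2 differences between these same arrays in earlier results, so those differences are given as a description. UACC62 is an established melanoma line, grown here in DMEM with serum. One culture had received a non-targeting siRNA (control siRNA) and 1 an siRNA specific for FOSL1 (FOSL1 siRNA), and both were harvested on day 3. FOSL1, a FOS family protein, binds DNA as an AP-1 dimer together with a JUN protein. Per its title, the series concerns the part of FOSL1 in melanocyte reprogramming and transformation, and this comparison shows what differs when a melanoma line is treated with siRNA against it. Both groups share the line, the medium and the transfection, and the labels do not state the siRNA sequences. Each group was 1 array, so no difference below has a replicate check, an error or a p-value, and every value describes these 2 arrays.

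PTGS2 encodes the inducible cyclooxygenase COX-2, which turns arachidonic acid into the precursor of prostaglandins. CXCL8 (interleukin 8) and CXCL2 are secreted CXC chemokines that attract neutrophils, CXCL8 through the receptors CXCR1 and CXCR2 and CXCL2 through CXCR2. In contrast, CCL2 attracts monocytes through CCR2. LIF is a cytokine of the interleukin 6 family that binds LIFR together with the shared subunit gp130, encoded by IL6ST, and signals through JAK kinases and STAT3. In many cell types these genes are switched on quickly by inflammatory stimuli, and AP-1, NF-kB and C/EBP factors are known regulators of several of them. Melanoma cells are known to secrete CXCL8 and related chemokines.

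The stretches just before the transcription start are shown because FOSL1 acts through AP-1, and because 2 of these CXC chemokine genes differed in opposite directions. RefSeq promoters of build GRCh38.p14 were held for 3 of the 5 genes, and 250 bases before each start are printed 5′ to 3′ on the gene's strand. Capitals mark every match, on either strand, to the motifs described after the sequences. The PTGS2 stretch is chr1:186680424-186680673 (minus strand), that of CXCL8 is chr4:73740319-73740568 (plus strand), and that of CXCL2 is chr4:74099196-74099445 (minus strand).
PTGS2: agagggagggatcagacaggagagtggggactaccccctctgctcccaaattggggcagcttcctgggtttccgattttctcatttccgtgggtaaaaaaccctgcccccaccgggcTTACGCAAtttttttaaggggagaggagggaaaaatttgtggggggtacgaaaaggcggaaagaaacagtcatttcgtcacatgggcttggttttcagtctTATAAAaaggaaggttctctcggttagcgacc
CXCL8: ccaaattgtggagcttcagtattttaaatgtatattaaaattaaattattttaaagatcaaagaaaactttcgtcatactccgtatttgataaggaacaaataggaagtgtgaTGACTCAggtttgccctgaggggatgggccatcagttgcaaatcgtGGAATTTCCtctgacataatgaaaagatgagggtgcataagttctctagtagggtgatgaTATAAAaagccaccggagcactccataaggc
CXCL2: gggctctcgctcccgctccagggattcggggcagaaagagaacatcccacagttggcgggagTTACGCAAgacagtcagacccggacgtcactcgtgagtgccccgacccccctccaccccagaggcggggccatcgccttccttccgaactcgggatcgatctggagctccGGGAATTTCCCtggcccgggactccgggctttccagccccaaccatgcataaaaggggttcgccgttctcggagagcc

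Of the 3 stretches, that of CXCL8 held an AP-1 motif. The AP-1 motif, searched as TGACTCA or TGAGTCA, lay from -137 to -131 of CXCL8, counting back from -1 at the base before the start, and it matched on both strands because the forms searched are reverse complements of each other. It was found in 4.16% of the 27305 promoters of the same length in the table. The NF-kB consensus was found in CXCL2, where it overlaps itself on both strands between -78 and -68, and in 9.57% of promoters. It also lay between -79 and -69 of CXCL3 and of CXCL1, whose stretches were searched but are not printed. A shorter kB core, GGAATTTCC, was added after the sequences were seen, so its presence was known beforehand and nothing is read from its share. It lay from -91 to -83 of CXCL8 and from -77 to -69 of CXCL2, inside the longer match there, and in 0.428% of promoters. CXCL3 and CXCL1 held this core too, inside their longer matches. The C/EBP motif TTGCNNAA, printed as its reverse complement, lay from -133 to -126 of PTGS2 and from -188 to -181 of CXCL2, and in 9.13% of promoters. The letters TATAAA lay from -32 to -27 of PTGS2 and from -31 to -26 of CXCL8, and in 11.1% of promoters. The CRE motif TGACGTCA (1.77% of promoters) and the STAT motif TTCNNNGAA (6.78%) were not in these 3 windows. The search counted only exact matches to these patterns, so a site that departs from its pattern was not marked. An unmarked stretch is therefore no sign that such a site is absent. These matches describe letters in the reference sequence, and no binding was measured.

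The deposited values, 1 per probe set and array, were taken as log2 intensities, and a difference is the value with FOSL1 siRNA minus the value with control siRNA. FOSL1 itself was 2.88-fold lower in the array with FOSL1 siRNA (log2 values of 11.90 and 10.38). Genes with a mean log2 value of at least 8.02, the median of named genes, passed a filter on dim genes, which left 7442. The 5 genes examined all passed it. The differences of the 7442 genes had a median of -0.00, and the central 95% of them lay between -0.43 and 0.48. Of the melanoma lineage markers, S100B, TYR, SOX10, CSPG4, MLANA, MITF and S100A1 passed the filter, while the pigment genes PMEL and TYRP1 did not. The median difference of these 7 was -0.10, with 5 below 0: S100A1, TYR and SOX10 had -0.40, -0.34 and -0.30, and MITF, the main regulator of the lineage, had 0.36. The part of these markers in the results below was not tested.

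PTGS2, CCL2 and CXCL8 were higher with FOSL1 siRNA, and LIF and CXCL2 were lower. Above 0 lay 49.8% of the 7442 genes and below it 50.1%. PTGS2 was at least 2-fold higher, as were 0.0806% of all genes, while 0.0403% were at least 2-fold lower. CCL2 and PTGS2 were at least 1.5-fold higher, against a background of 1.13% of genes. CXCL8 and LIF, at 1.49-fold and 1.47-fold, lay just under that size, and 0.766% of genes were at least 1.5-fold lower. The genes had been chosen for these differences, so nothing is read from their counts against the background.

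**Figure D1:**
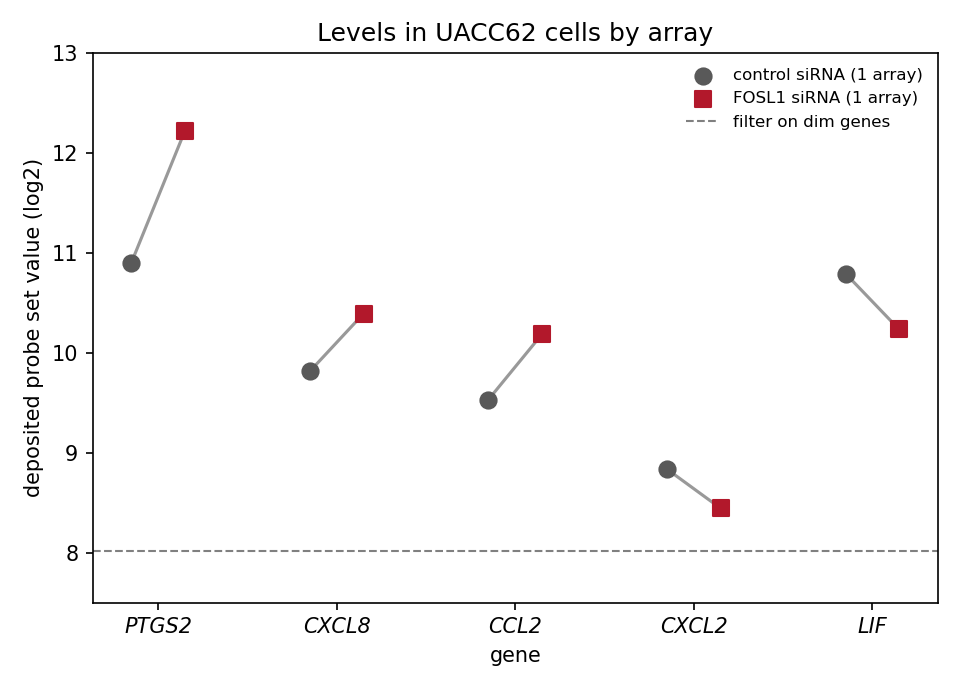
Deposited log2 value (vertical axis) of the 5 genes in the array with control siRNA (grey circles) and the array with FOSL1 siRNA (red squares), with 1 array per condition and no error bars. PTGS2 goes from 10.90 to 12.22, CXCL8 and CCL2 are also higher with FOSL1 siRNA, and CXCL2 and LIF are lower. The dashed line is the filter on dim genes, and levels are to be compared within a gene only.

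PTGS2 (Entrez gene 5743, probe set 16697370) stood at 10.90 on the log2 scale in the control array and at 12.22 in the array with FOSL1 siRNA. The level in the second array was 2.50-fold higher, a log2 difference of 1.32. It ranked 1 of the 7442 genes from the highest difference, and the next were LRRC17 (1.22), a secreted leucine-rich repeat protein, and PCDH18 (1.12), a protocadherin. PTGS2 also lay well inside the bright range of the array, with a mean log2 value of 11.56, where the brightest 25% of named genes begin at 9.48. Among these genes the central 95% of differences lay between -0.37 and 0.38.

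CCL2 (Entrez gene 6347, probe set 16833204) had log2 values of 9.53 (control siRNA) and 10.19 (siRNA against FOSL1). It was 1.57-fold higher, a log2 difference of 0.65, and ranked 49 from the highest. Nearest to it by difference were CEACAM1 (0.66) and FBXO4 (0.65) above and BTF3L4 (0.65) and IQCB1 (0.65) below. CEACAM1 is a cell adhesion molecule and FBXO4 a subunit of a ubiquitin ligase.

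CXCL8 (Entrez gene 3576, probe set 16967771) had log2 values of 9.82 (control siRNA) and 10.39 (siRNA against FOSL1). It was 1.49-fold higher, a log2 difference of 0.58, and ranked 91 from the highest. Its nearest genes by difference were ZNF566 (0.58) and PTN (0.58) above and GPATCH2 (0.57) and CSPP1 (0.57) below. PTN encodes the growth factor pleiotrophin. Likeness was judged from a single difference over 2 arrays, so these neighbours share a value and nothing more was measured.

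LIF (Entrez gene 3976, probe set 16933760) had log2 values of 10.79 (control siRNA) and 10.23 (siRNA against FOSL1). It was 1.47-fold lower, a log2 difference of -0.56, and ranked 66 from the lowest. Next to it lay ZNF414 (-0.55) and the vault RNA VTRNA1-3 (-0.56) above and the microRNA gene MIR3147 (-0.56) and the non-coding MIF4GD-DT (-0.57) below. LIF was among the brightest 25% of named genes, as were PTGS2, CXCL8 and CCL2.

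CXCL2 (Entrez gene 2920, probe set 16976844) had log2 values of 8.83 (control siRNA) and 8.44 (siRNA against FOSL1). It was 1.31-fold lower, a log2 difference of -0.39, and ranked 247 from the lowest. Its mean log2 value, 8.64, lay outside the brightest 25% of named genes. Its difference was inside the central 95% of all genes past the filter, whereas those of the other 4 were outside. The nearest genes by difference were SHKBP1 (-0.39) and AVPI1 (-0.39) above and MZB1 (-0.39) and AMDHD2 (-0.39) below. CXCL2 is closely related in sequence to CXCL1 and CXCL3, and which of its probes could also bind those transcripts was not examined, so its value is uncertain in that respect.

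**Figure D2:**
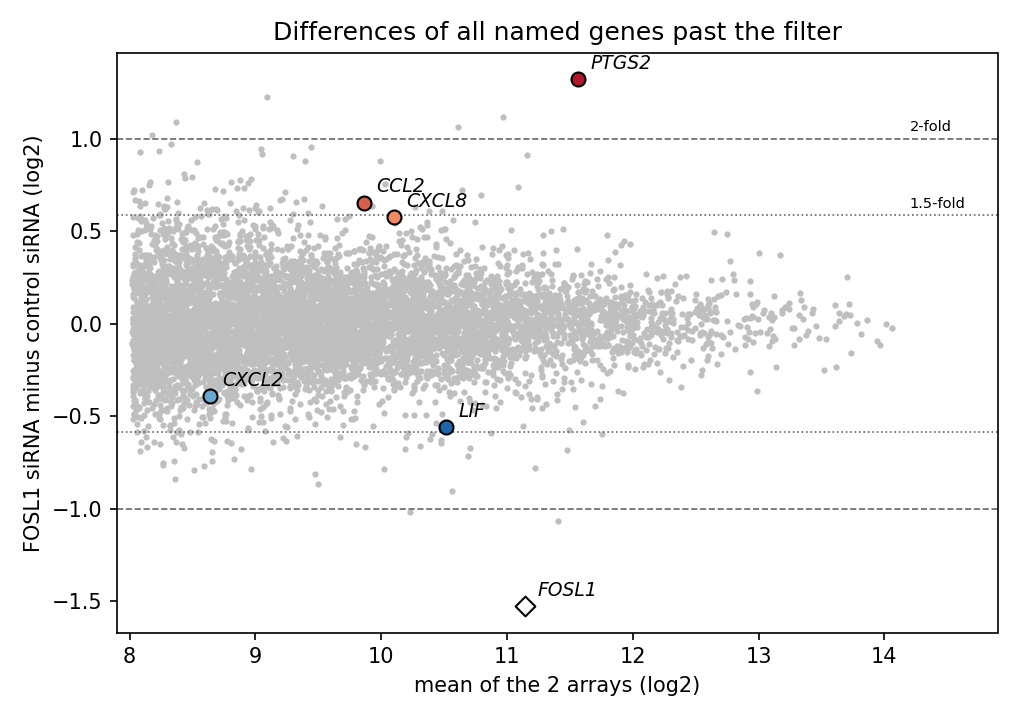
Difference between the arrays (vertical axis, log2) against the mean of both arrays (horizontal axis, log2) for the 7442 named genes past the filter, 1 grey point per gene, with the 5 genes in colour and FOSL1 as an open diamond. Dashed lines mark 2-fold and dotted lines 1.5-fold in either direction. PTGS2 at 1.32 is the highest point and FOSL1 at -1.53 the lowest, while CXCL2 at -0.39 lies among the other genes.

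All 5 genes are short, and differences moved with gene length on these arrays. Among the 7442 genes, the 25% with the shortest span in the RefSeq annotation had a median difference of -0.11, and the 25% with the longest had 0.08. The 5 genes all lay among the shortest 25%. Of these 1861 short genes, 13 were higher by 1.5-fold or more and 35 were lower by that much. With a trend on span removed, the differences of PTGS2, CCL2 and CXCL8 were 1.40, 0.75 and 0.67, and those of LIF and CXCL2 were -0.47 and -0.30. CXCL8 was then 1.59-fold higher, past 1.5-fold, while LIF and CXCL2 were 1.39-fold and 1.23-fold lower, less than before. The part of gene length in these differences was not tested further.

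CXCL8 and CXCL2 lie at the ends of 1 chemokine cluster on chromosome 4, and the genes between them differed in both directions. In RefSeq order the cluster runs CXCL8, CXCL6, PF4V1, CXCL1, PF4, PPBP, CXCL5, CXCL3, the pseudogene PPBPP2 and CXCL2. Next to CXCL8, CXCL6 had log2 values of 5.26 (control siRNA) and 4.85 (siRNA against FOSL1), and PF4V1 had 7.52 and 7.28. CXCL5 had 6.58 and 6.85, and PPBP 4.82 and 4.69. These 4 and CXCL3 and PPBPP2 were below the filter, at levels where differences vary more: among the 7442 genes below it the central 95% spanned -0.55 to 0.61. CXCL3, which like CXCL2 signals through CXCR2, had 6.65 and 6.66, a difference of 0.01. PF4, platelet factor 4, lay just past the filter with 7.98 and 8.07. The level of CXCL1 was not analysed here. Of the cluster, CXCL8, PF4 and CXCL2 passed the filter, and CXCL8 and CXCL2 differed in opposite directions.

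CCL2 opens a cluster of CC chemokines on chromosome 17. The next genes, CCL7 and CCL11, had differences of -0.26 and -0.17, CCL8 had 0.44 and CCL1 had -0.15. All 4 were below the filter, with log2 values between 5.40 and 6.31 in the control array, so of the genes measured in this stretch CCL2 alone passed it. CCL13, between CCL8 and CCL1, was not analysed here. Beside PTGS2, ODR4 had a difference of 0.28, and PDC and LINC01720, both below the filter, had 0.04 and -0.15. Beside LIF lies OSM, which encodes the related cytokine oncostatin M. OSM was below the filter, with log2 values of 7.11 (control siRNA) and 6.89 (siRNA against FOSL1), and the other neighbours CASTOR1, MTMR3 and HORMAD2 had differences of -0.05, -0.10 and -0.16.

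**Figure D3:**
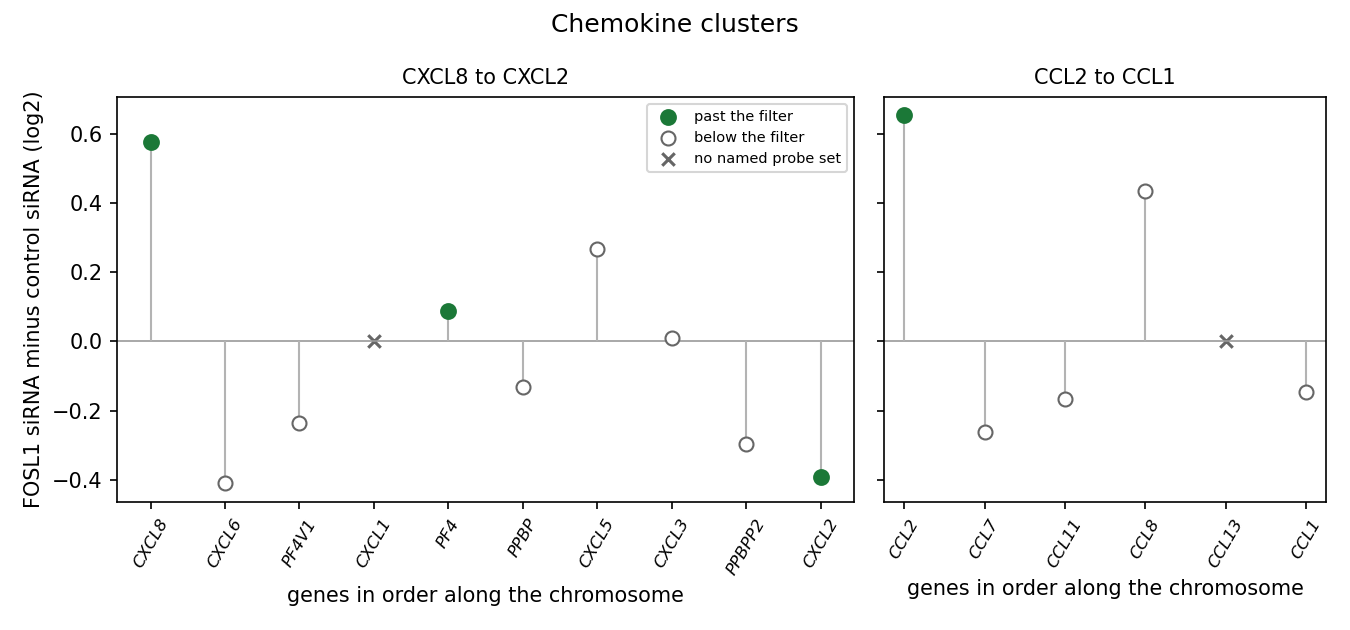
Difference between the arrays (vertical axis, log2) for the genes of both chemokine clusters in their order along the chromosome, with 1 point per gene. Filled points passed the filter on dim genes, open points did not, and crosses mark genes that were not analysed. CXCL8 (0.58) and CXCL2 (-0.39) stand at opposite ends of the left panel with points on both sides of 0 between them, and CCL2 (0.65) is the filled point of the right panel.

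Of the other genes of prostanoid metabolism that passed the filter, more had lower than higher values with FOSL1 siRNA. The list of 27 also held lipoxygenase, leukotriene and endocannabinoid genes, among them LTA4H, which makes leukotriene B4 and had a difference of 0.00. Of the 27, 20 had a named probe set and 10 passed the filter. Their median difference was -0.17, beside -0.00 over all genes, with 3 above 0 and 7 below, but it was 0.0023 with a stricter filter, at the 75th percentile of brightness. At a fold of 1.2, which 11.1% of all genes reached upward and 9.78% downward, 1 gene of the list was higher and 3 were lower. TBXAS1, the thromboxane synthase, was 1.49-fold lower (log2 values of 9.23 and 8.65). PTGDS, a prostaglandin D synthase, was 1.26-fold lower, and MGLL, a monoacylglycerol lipase that releases arachidonic acid in some tissues, 1.25-fold lower. PTGR1, a reductase that inactivates eicosanoids, was 1.34-fold higher (8.14 and 8.56).

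PTGES, PTGS1 and HPGD each differed by less than 1.2-fold. PTGES, the inducible synthase that makes prostaglandin E2 from the product of COX-2, had log2 values of 8.49 (control siRNA) and 8.33 (siRNA against FOSL1). PTGS1, the constitutive cyclooxygenase, was below the filter with 7.56 and 7.52. HPGD, which degrades prostaglandins, was also below it with 6.33 and 6.51. PLA2G4A, the phospholipase that supplies arachidonic acid, was not analysed here.

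Of the prostaglandin receptors and transporters listed, 8 of 12 had a named probe set and 3 passed the filter, with a median of 0.03 (-0.03 with no filter). None of the 3 was past 1.2-fold, which 11.1% of all genes reached upward and 9.78% downward. The brightest was PTGFRN, a regulator of the prostaglandin F receptor, with log2 values of 12.08 and 12.22. PTGER4, a receptor for prostaglandin E2, was below the filter in its mean, with 7.64 with control siRNA and 8.19 with FOSL1 siRNA, which is 0.55 higher. PTGER3, another of these receptors, had 5.97 and 5.68. PTGER1 and PTGER2 were not analysed here.

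Most other chemokines were dim in these cells. Of 15 further CXC and CX3C chemokines with a named probe set, 3 passed the filter, and of 22 further CC and XC chemokines 3 passed. None of these 6 differed by 1.2-fold, which 11.1% of all genes reached upward and 9.78% downward, so nothing is read from that count. By difference, the first group was led by CXCL16, a membrane-bound chemokine, at 0.18 (log2 values of 9.38 and 9.56), and the second by CCL5, which attracts T cells and monocytes, at 0.17 (8.06 and 8.23). Below the filter, the differences of the first group ran from -0.41 to 0.84 and those of the second from -0.26 to 0.44. The highest, 0.84, belonged to the interferon-inducible CXCL11, named here after its values were seen.

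The receptors for these chemokines were below the filter. Of 20 chemokine receptors with a named probe set, 1 passed it, the scavenging receptor ACKR4, with 8.24 and 8.05. CXCR1 and CXCR2, through which CXCL8 acts, had log2 values of 6.29 and 6.55 with control siRNA and 6.10 and 6.35 with FOSL1 siRNA. CCR2, the receptor of CCL2, had 6.16 in the control array and a difference of -0.16.

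The other ligands of the LIF family that passed the filter had lower values with FOSL1 siRNA, and the receptor LIFR did not. Of 15 interleukin 6 family ligands and receptors listed, 9 had a named probe set and 5 passed the filter. Their median was -0.23, with 2 above 0 and 3 below. With a stricter filter, at the 75th percentile of brightness, the receptors IL6R, LIFR and OSMR remained and the median was 0.11. The family cytokine IL11 went from 8.70 in the control array to 8.31, which is 1.31-fold lower. CTF1 (cardiotrophin 1), chosen for the text once its values were known, differed by -0.23. IL6R, the interleukin 6 receptor, was 1.46-fold lower, with 9.97 and 9.42. LIFR, the receptor of LIF, had 10.21 and 10.33, and OSMR, the oncostatin M receptor, had 10.53 and 10.74. IL6 and IL6ST were not analysed here.

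Downstream of LIF, 11 of 19 listed genes of JAK-STAT3 signalling passed the filter, with a median of -0.14 (0.0052 at the 75th percentile filter) and 3 above 0. The kinase gene JAK2 was 1.22-fold higher, and SOCS1, an inhibitor of JAK kinases, was 1.27-fold lower. SOCS3, a feedback inhibitor that STAT3 induces, had log2 values of 8.25 (control siRNA) and 8.21 (siRNA against FOSL1), and STAT3 itself had 12.48 and 12.55. Both were chosen after their values were seen, for their place in LIF signalling.

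Of 31 listed genes for NF-kB subunits, their kinases, adaptors and inhibitors, 17 passed the filter, with a median of -0.09. At 1.2-fold, 3 were lower and 0 were higher, where 9.78% and 11.1% of all genes reached that size. The 3 were RELA, the p65 subunit (1.24-fold), TNIP2, an inhibitor of the pathway (1.24-fold), and MYD88, the adaptor of Toll-like and interleukin 1 receptors (1.23-fold). The main feedback inhibitors NFKBIA and TNFAIP3 were not analysed here. Of the inflammatory cytokines and receptors listed, 7 of 25 passed the filter, with a median of -0.00. TLR3, the sensor of double-stranded RNA, was 1.37-fold higher and IL1RAP, a subunit of the interleukin 1 receptor, 1.28-fold higher.

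Transcripts such as those of PTGS2 and CXCL8 carry AU-rich elements, which mark them for rapid decay. Of 24 listed genes that bind such elements or degrade mRNA, 12 passed the filter, with a median of 0.00 and 6 on each side. The decapping enzyme DCP2, the exonuclease XRN1 and the exosome subunit EXOSC9 were 1.32-fold, 1.24-fold and 1.25-fold higher. ZC3H12A, an endonuclease that cuts cytokine transcripts, was 1.27-fold lower, and its value with FOSL1 siRNA, 7.88, was under the filter. Of the AU-rich element binding proteins, KHSRP and TIAL1 had differences of -0.09 and 0.05. TIA1, below the filter, had log2 values of 7.31 (control siRNA) and 7.98 (siRNA against FOSL1), a difference of 0.67. These binding proteins were named after their values were seen. ZFP36, ZFP36L1 and ELAVL1, which also bind such elements, were not analysed here.

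**Figure D4:**
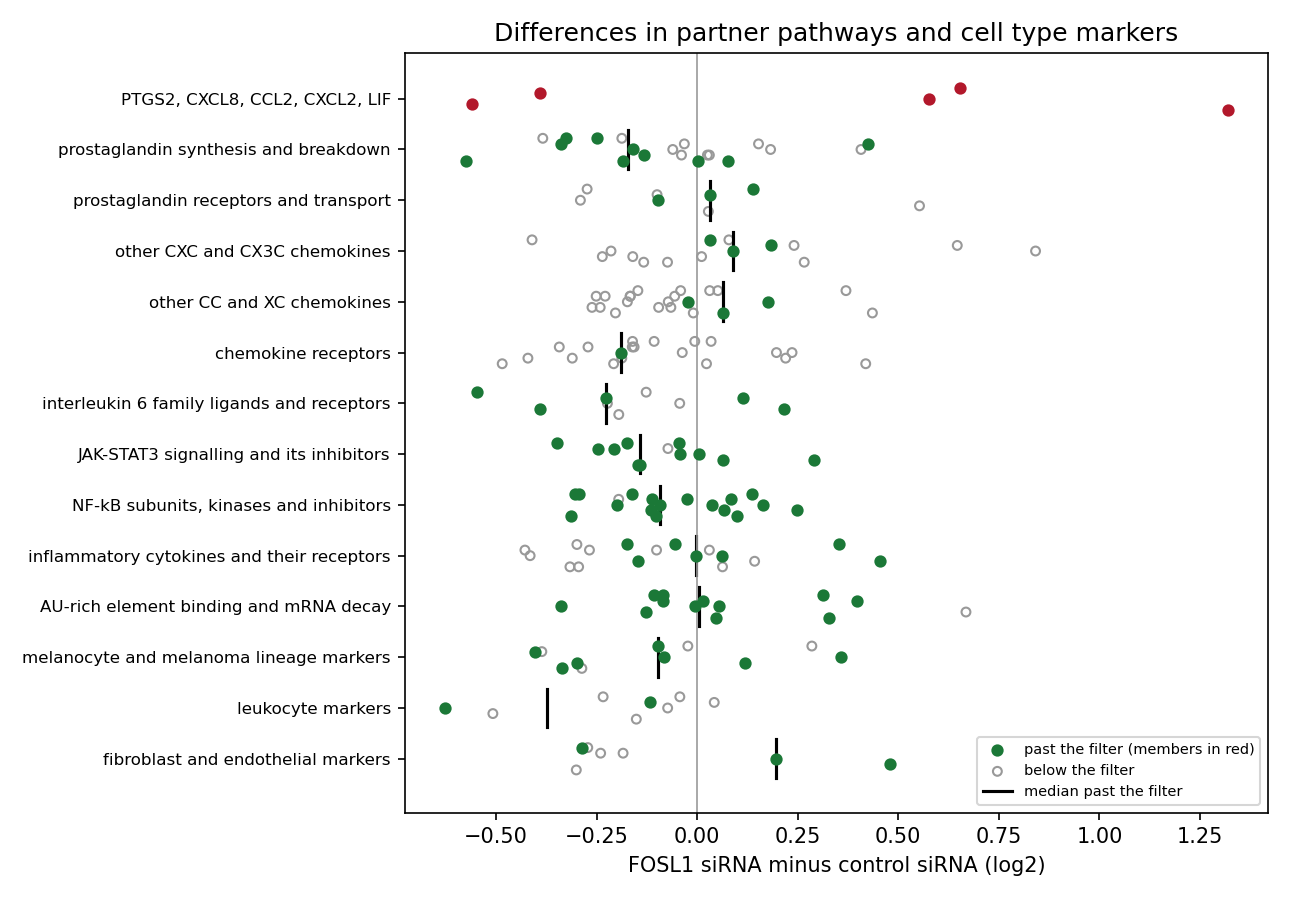
Difference between the arrays (horizontal axis, log2) for the 5 genes (top, red) and for the genes of each list below, 1 point per gene; filled points passed the filter on dim genes, open points did not, and black bars are the medians of the filled points. PTGS2 at 1.32 lies to the right of every point of the other lists, and the median of the list headed prostaglandin synthesis and breakdown is at -0.17.

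Chemokines and PTGS2 are also made by leukocytes, fibroblasts and endothelium, so markers of these cells were read from the same arrays. Of 18 leukocyte markers listed, 8 had a named probe set and 2 passed the filter. These were CD68, a lysosomal protein that other cells also make, which was 1.55-fold lower, and S100A9, with a difference of -0.12. The markers CD14, CD163, LYZ, TYROBP, S100A8 and CSF1R were below the filter in both arrays. CSF1R had log2 values of 7.93 (control siRNA) and 7.42 (siRNA against FOSL1), a difference of -0.51. On the linear scale the 8 values summed to 2903 with control siRNA and 2144 with FOSL1 siRNA. CD68 (log2 values of 10.79 and 10.17) was the largest term, so this sum of unlike probes is no measure of leukocyte content. Of 16 fibroblast and endothelial markers listed, 7 had a named probe set and 3 passed the filter. LUM, a matrix proteoglycan, was 1.39-fold higher, KDR had a difference of 0.19, and CLDN5 was 1.22-fold lower. The values of the 7 summed to 5337 and 6361, with KDR and LUM (11.05 and 11.53) as the largest terms and LUM as most of the difference. PECAM1, VWF, THY1 and DCN were below the filter, with differences of -0.30, -0.24, -0.27 and -0.18. The part of these markers in the differences of PTGS2, CCL2 and CXCL8 was not tested. Both cultures were of the melanoma line UACC62, so these marker values describe that line and are no measure of another cell type. In RNA from whole cultures, fewer cells with a transcript and less of it per cell cannot be told apart.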

How the data were processed

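Total RNA from 2 cultures (100 ng each, per the labels) was measured on 1 Affymetrix array per condition. The authors deposited 1 value per probe set and array, read here as log2 intensities from their range; for the log base, the summarization and the normalization, the labels name no method. The median was 6.885 on each array, and sorted values differed by at most 0.0301. Of 53427 probe sets, 16098 had a gene symbol in the annotation used here and 37329 had none in it. Genes without a named probe set in that annotation were not analysed. The brightest probe set stood for each gene, and all 5 genes matched RefSeq (GRCh38.p14) by Entrez ID. The 5 genes and all lists were chosen with earlier results of these data known. From each list the text names up to 3 genes per direction that passed the filter and differed by at least 1.2-fold (or the largest one), direct partners, and the 2 nearest genes by difference on each side of each of the 5. The text also names genes outside this rule with their values known, among them chromosome neighbours, cell type markers, LTA4H and OSMR. No test was run, since each condition had 1 array. Trends were removed by loess (span 0.3, statsmodels 0.14.6), and the calculations were tested on simulated data. Scanner intensities were not used here.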

Additional observations from a re-analysis of the deposited data

How the results depend on the processing

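No paired analysis was possible because each condition had 1 array. The alternatives were array centring, quantile normalization over named genes, removal of a trend on mean log2 value or on gene span, the mean of all probe sets, other filters and other fold thresholds. The SD between probe sets of a gene, 0.169 over 213 genes, served as the yardstick and leaves out variation between cultures. All 25 values of the 5 genes moved by less than it and kept their sign: PTGS2 lay between 1.31 and 1.40, CCL2 between 0.65 and 0.75, CXCL8 between 0.57 and 0.67, LIF between -0.56 and -0.47 and CXCL2 between -0.40 and -0.30. Each has 1 probe set and the arrays had almost equal distributions, so centring and averaging could hardly alter them. Genes at least 2-fold higher and lower numbered 6 and 3, but 38 and 13 with no filter and 84 and 57 at 1.5-fold, 0 and 0 at 3-fold, and 3 were higher with the filter at the 75th percentile. Of 89 list medians, 84 moved by less than the SD and 12 changed sign. At the 75th percentile filter, the median was 0.0023 for the list of prostaglandin synthesis and breakdown, of which PTGES3, CBR1 and LTA4H remained. It was 0.11 for the interleukin 6 family, of which IL6R, LIFR and OSMR remained. For leukocyte markers it was -0.63, the value of CD68 alone. With no filter it was -0.13 for leukocyte markers, against -0.37 with the main filter. For fibroblast and endothelial markers it was -0.24 with no filter and 0.19 with the main filter, so its sign changed.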
